A study of Mus musculus with 13 samples.

Results

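Nephron progenitors (NP) and proximal tubule (PT) were compared in the 2 newborn (P0) samples of a single-nucleus ATAC-seq (snATAC-seq) survey of the mouse kidney. The members were the nuclei that the deposited annotation places in the clusters named NP and PT. NP held 1032 nuclei in P0 sample 1 and 1005 in P0 sample 2, and PT held 547 and 557. These 3141 nuclei were part of 11429 nuclei at P0 and of 28316 nuclei in all 5 snATAC-seq samples. The comparison asks which genes and which distal elements lie in open chromatin in the cells that found the nephron and in one of the segments that they form.

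Both P0 samples were whole kidneys at postnatal day 0 by their labels, while the extraction protocol speaks of 1-day-old mice. No genetic change or treatment is given for any sample, the strain of the snATAC-seq mice is not given in the sources used here, and no label says whether a sample was 1 animal or a pool. The other samples were 1 kidney sample at P21 and 2 at P56, which are called adult here. They gave the contrast of the clusters with these names in other nuclei, 195 of NP and 6308 of PT. In the adult samples NP is the cluster's label, which the NP markers as a set did not bear out. The adult samples also gave a shared estimate of the spread where 1 P0 sample was left out. The study names a convoluted and a straight segment of the proximal tubule. PT and a separate cluster, PT2, are taken here as these segments, in that order.

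Nephron progenitors are mesenchymal cells that cap the tips of the branching ureteric bud. They are kept by transcription factors such as Six2, Wt1 and Sall1 and by signals such as Fgf9. Once induced by Wnt signals they turn into an epithelial renal vesicle, which is then divided into segments. The proximal tubule is the segment that takes back most of the filtered glucose, phosphate, amino acids and protein. Its cells carry a brush border, burn fatty acids and make glucose, and factors of the HNF4 and HNF1 families are known to control their genes. Distal elements are stretches of open chromatin away from genes, many of which are thought to act as enhancers.

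Before the values, 7 distal peaks are shown by the central 300 bases of each peak, on the plus strand of GRCm38 (mm10). The letters in capitals match a motif that was searched for on both strands, and a window with no capitals holds none of the letters searched. The first NP peak and the first PT peak had the largest fitted fold change of each direction. They were ranked among the distal peaks open in at least 10% of the nuclei of the higher cluster in both samples. The NP peak was open in no PT nucleus, so its fold has only a lower bound and its rank is uncertain. The NP and PT peaks lie at chr11:84661075-84661374, upstream of Lhx1, and at chr9:57669707-57670006, downstream of the start of Cyp1a2, where the capitals mark a TFAP2 motif.
Lhx1 upstream, higher in NP: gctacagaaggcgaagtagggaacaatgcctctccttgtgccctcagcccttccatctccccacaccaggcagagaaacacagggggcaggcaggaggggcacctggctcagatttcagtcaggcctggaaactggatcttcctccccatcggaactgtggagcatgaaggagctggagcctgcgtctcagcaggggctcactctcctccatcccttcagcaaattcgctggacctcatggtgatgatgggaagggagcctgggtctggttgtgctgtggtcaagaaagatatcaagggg
Cyp1a2 downstream, higher in PT: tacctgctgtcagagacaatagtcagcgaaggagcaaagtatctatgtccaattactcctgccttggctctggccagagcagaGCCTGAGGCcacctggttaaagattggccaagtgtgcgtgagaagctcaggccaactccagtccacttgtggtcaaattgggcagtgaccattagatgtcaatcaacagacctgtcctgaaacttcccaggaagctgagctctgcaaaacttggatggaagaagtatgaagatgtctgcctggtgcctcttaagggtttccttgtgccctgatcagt

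A further pair was chosen, after the values were seen, because it lies beside a defining gene of each cell type. The peak upstream of Six2 (window chr17:85748502-85748801) holds a TFAP2 motif, and the peak upstream of Slc34a1 (window chr13:55391799-55392098) holds none of the letters searched.
Six2 upstream, higher in NP: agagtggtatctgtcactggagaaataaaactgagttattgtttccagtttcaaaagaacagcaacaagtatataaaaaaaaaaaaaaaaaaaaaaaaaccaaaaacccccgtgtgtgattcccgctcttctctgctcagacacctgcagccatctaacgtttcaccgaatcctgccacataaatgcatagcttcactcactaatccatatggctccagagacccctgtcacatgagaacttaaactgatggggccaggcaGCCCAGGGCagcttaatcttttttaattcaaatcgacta
Slc34a1 upstream, higher in PT: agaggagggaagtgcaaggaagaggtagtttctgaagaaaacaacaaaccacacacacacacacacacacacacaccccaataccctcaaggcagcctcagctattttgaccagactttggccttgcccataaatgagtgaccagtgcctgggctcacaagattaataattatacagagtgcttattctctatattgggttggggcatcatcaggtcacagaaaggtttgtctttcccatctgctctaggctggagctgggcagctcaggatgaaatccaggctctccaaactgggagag

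The last 3 were chosen, also after the values were seen, because they hold letters whose share differed between the directions. They carry a HOX9 to HOX13 motif beside a MAF motif (window chr5:120054705-120055004, nearest start Rbm19), an HNF4 motif (window chr9:113480038-113480337, nearest start Pdcd6ip) and an HNF1 motif beside an AP-1 motif (window chr2:37724299-37724598, nearest start Strbp).
HOX9 to HOX13 letters, higher in NP: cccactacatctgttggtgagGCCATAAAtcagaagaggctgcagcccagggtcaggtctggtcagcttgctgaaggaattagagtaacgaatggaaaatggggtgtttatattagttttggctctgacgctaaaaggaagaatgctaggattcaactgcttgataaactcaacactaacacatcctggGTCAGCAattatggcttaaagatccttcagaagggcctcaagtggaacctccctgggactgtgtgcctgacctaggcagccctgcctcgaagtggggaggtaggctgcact
HNF4 letters, higher in PT: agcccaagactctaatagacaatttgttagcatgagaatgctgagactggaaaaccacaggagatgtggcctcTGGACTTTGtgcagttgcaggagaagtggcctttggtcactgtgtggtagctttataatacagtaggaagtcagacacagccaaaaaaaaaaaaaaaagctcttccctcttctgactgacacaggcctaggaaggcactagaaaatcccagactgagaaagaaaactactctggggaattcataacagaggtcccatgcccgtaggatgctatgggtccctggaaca
HNF1 letters, higher in PT: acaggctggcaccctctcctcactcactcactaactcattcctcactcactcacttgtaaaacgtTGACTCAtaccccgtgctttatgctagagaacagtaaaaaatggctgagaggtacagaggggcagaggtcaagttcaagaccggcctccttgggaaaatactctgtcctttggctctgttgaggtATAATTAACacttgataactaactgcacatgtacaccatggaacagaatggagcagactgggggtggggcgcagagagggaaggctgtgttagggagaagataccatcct

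An open call is a nucleus with at least 1 fragment in a peak. Nuclei of NP had a median of 5897.5 and 7226 open peaks in samples 1 and 2 and those of PT 7128 and 5420, so the deeper cluster was not the same in both samples. Summing the open calls by sample and cluster gave 6408014 and 7649123 calls for NP and 4041065 and 3345160 for PT. The 4 sums were tested with the quasi-likelihood test of edgeR, with the sample as a block and an adjusted p under 0.05 as the threshold. A log2 fold change is NP minus PT after depth normalization, followed by its standard error (SE), and a feature past the threshold is said to be called. The clusters were made from these same nuclei, so the p-values rank features and are no independent test that the cell types differ. With 2 samples the spread was estimated across features and was close to counting error alone, so the values of both samples are given. The samples shared 52 barcodes, 2 of them in NP or PT.

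Much of the open chromatin differed between the clusters. Of 116678 peaks tested, 45128 (38.7%) were called higher in NP and 41597 (35.7%) in PT, 74.3% in all. With a change of at least 4-fold and the same direction in both samples also asked for, a rule added after the values were seen, 27144 (23.3%) were higher in NP and 26425 (22.6%) in PT. Without sample 1 the number called was 54312 (23995 higher in NP and 30317 in PT) and without sample 2 it was 64043 (35610 and 28433), with the spread pooled with the adult samples, so the direction with more calls changed with the sample. Peaks over an annotated transcription start differed least, with 7.20% of 18869 at least 4-fold higher in NP and 7.30% in PT. Their median absolute log2 fold change was 0.47, against 2.20 for intronic and 2.13 for distal peaks. Distal peaks leaned towards NP, with 31.3% at least 4-fold higher in NP and 21.4% in PT. In introns these shares were 25.9% and 28.2%, in exons and UTRs 12.2% and 14.9% and in upstream regions 20.1% and 25.1%, with median log2 fold changes of 0.03, -0.01 and 0.07, against 0.53 in distal peaks.

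Gene activity is the open calls of all peaks over a gene and its 2 kb upstream. Of 27245 genes tested, 9386 (34.5%) were called higher in NP and 9169 (33.7%) in PT, 68.1% in all. The scaling sets the centre of these values, whose median log2 fold change was -0.00051. Of the 17166 protein-coding genes among them, 5377 (31.3%) were called higher in NP and 6238 (36.3%) in PT. At least 4-fold, with the same direction in both samples, were 1981 of all genes tested (7.27%) in NP and 1510 (5.54%) in PT. Of the protein-coding genes these were 563 (3.28%) in NP and 511 (2.98%) in PT. Without sample 1 the number called was 11231 and without sample 2 it was 11304. Genes that overlap share peaks, and for 30.0% of the genes tested every peak also counted for another gene.

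**Figure D1:**
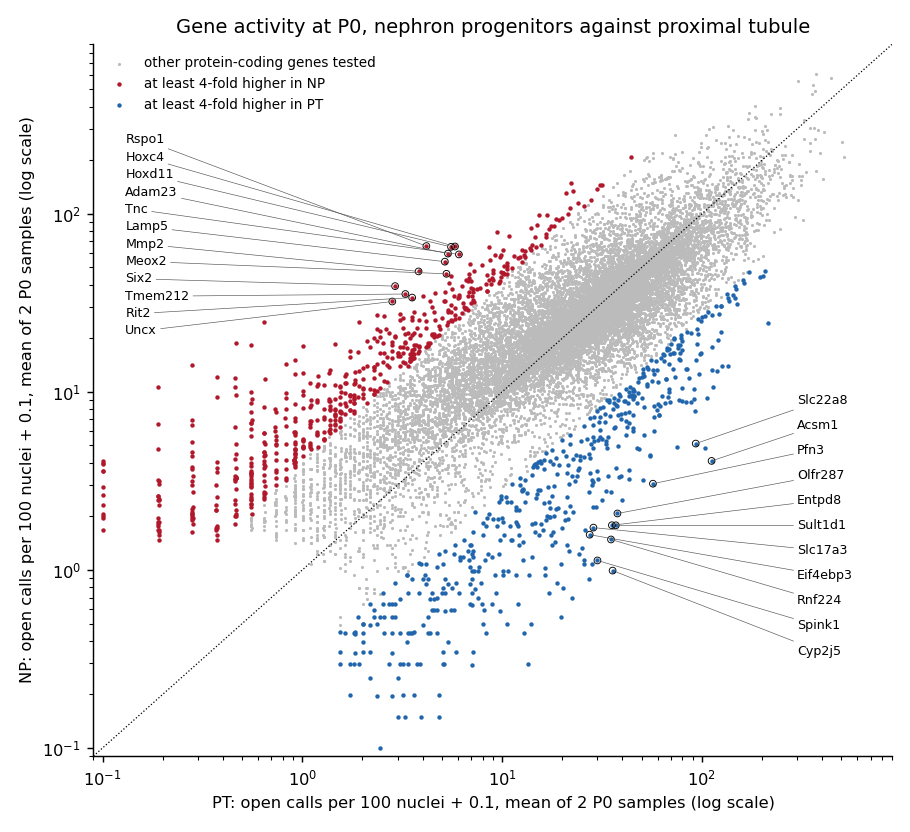
Gene activity of each protein-coding gene tested, as open calls per 100 nuclei plus 0.1 and as the mean of the 2 P0 samples, in PT (x axis) and NP (y axis), both on log scales, with the line of equal values dotted. Genes at least 4-fold higher in NP are red and in PT blue, and 12 leading genes of NP and 11 of PT are ringed and named, with the NP ones at 29.3 (Uncx) to 71.6 (Rspo1) calls per 100 nuclei in single NP samples.

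Genes were ranked if they had at least 0.25 open calls per nucleus in the higher cluster in both samples. Of the 12 protein-coding genes with the largest change towards NP, the first was Rspo1. Rspo1, which encodes the secreted Wnt agonist R-spondin 1, had 60.0 and 71.6 open calls per 100 nuclei in NP and 4.20 and 3.95 in PT (log2 fold change 3.90, SE 0.15). Six2, the factor that keeps progenitors self-renewing, had 35.3 and 43.1 in NP and 3.47 and 2.15 in PT (3.69, SE 0.18). Both NP values were above both PT values for each gene, which follows from the ranking and is no further support. The 1 peak of Six2 was not shared with another gene. Hoxd11, a patterning gene of the early kidney, had 60.3 and 70.0 in NP and 7.31 and 3.59 in PT (3.48, SE 0.14). Uncx, a homeobox gene used as a marker of these cells, had 29.3 and 34.9 in NP and 3.11 and 2.33 in PT (3.45, SE 0.19). The gap between the NP and PT values of both homeobox genes follows from the ranking too. The remaining leaders were the matrix metalloproteinase Mmp2 (log2 fold change 3.57), Hoxc4 (3.42), Adam23 (3.40), Tmem212 (3.35), Lamp5 (3.31), Rit2 (3.21), the matrix protein gene Tnc (3.20) and Meox2 (3.06). Of the peaks of Tnc 17 of 20, of Meox2 4 of 5 and of Hoxd11 3 of 5 also counted for another gene, so these 3 values are uncertain.

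Of the 12 leading genes of PT, 11 are given. Cyp2j5, a cytochrome P450 that makes epoxides of arachidonic acid, had 0.291 and 1.49 open calls per 100 nuclei in NP and 41.0 and 30.3 in PT (log2 fold change -5.41, SE 0.20). Slc22a8, an exchanger that takes up organic anions, had 3.68 and 6.37 in NP and 102 and 84.4 in PT (-4.33, SE 0.11). In both of these the lower PT value was above the higher NP value, which again follows from the ranking. Slc17a3, a transporter of organic anions and urate, had 0.969 and 2.29 in NP and 31.4 and 25.7 in PT (-4.24, SE 0.19). The others were Spink1 (-4.95), Acsm1 (-4.92), Rnf224 (-4.77), Sult1d1 (-4.57), Entpd8 (-4.51), Pfn3 (-4.39), Olfr287 (-4.38) and Eif4ebp3 (-4.34). All peaks of Pfn3, Olfr287 and Eif4ebp3 and 11 of 12 of Acsm1 counted for other genes too, so these 4 values are uncertain.

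Nephron progenitor regulators were mostly higher in NP. Of 22 such transcription factors and regulators tested, 19 were called higher in NP, 1 in PT and 2 were not called, with a median log2 fold change of 1.18. Of all genes tested 34.5% were called higher in NP and 33.7% in PT, and the counts of the lists that follow stand against these shares. Eya1, a partner of Six2, had 55.3 and 70.0 open calls per 100 nuclei in NP and 12.8 and 7.18 in PT (2.54, SE 0.12). Wt1, needed for the progenitors and later for podocytes, had 77.5 and 88.7 in NP and 26.5 and 13.8 in PT (1.96, SE 0.10). Sox11 had a log2 fold change of 2.59 and Meox1 of 2.45. Smaller differences were seen for Cited1 (1.47, both peaks shared with another gene), Osr1 (0.81) and Sall1 (0.53). The exception was Crym, a thyroid hormone binding protein used as a progenitor marker, with 16.4 and 20.1 in NP and 62.2 and 55.8 in PT (-1.81, SE 0.09). Pax2, a factor of progenitors and of the epithelium after them, had 110 and 135 in NP and 118 and 92.8 in PT and was not called (adjusted p = 0.11, edgeR), nor was Lin28b.

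Among 19 signalling and adhesion genes of the progenitor, 14 were called higher in NP, 3 in PT and 2 were not called, with a median of 1.27. Beside Rspo1, the largest differences were those of the cadherin Cdh11 (2.82, SE 0.12), the matrix proteoglycan gene Spock2 (2.61, SE 0.13) and Gdnf, the ligand that makes the ureteric bud branch (2.57, SE 0.14). Gdnf had 39.1 and 44.9 open calls per 100 nuclei in NP and 9.14 and 4.13 in PT. Bmp7 (-0.76), Wnt5a (-0.49) and the adhesion gene Ncam1 (-0.21) were called higher in PT, and the last was higher in NP around its start (0.71, adjusted p = 6.04e-11, edgeR) and not called against PT2 (0.16). Bmp7 was not called against PT2 either (-0.21). The ligands Fgf9 (-0.13) and Fgf20 (0.00) were not called over the gene and its 2 kb upstream. Calls around the start alone can differ from this, and Fgf20 was higher in PT there (-0.37).

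Of 22 genes of the renal vesicle and early epithelium tested, 10 were called higher in NP, 9 in PT and 3 were not called, with a median of 0.12. The list was split between the directions, with both counts above the 34.5% and 33.7% of all genes. Wnt4, which drives the turn to epithelium, had 45.5 and 54.2 open calls per 100 nuclei in NP and 13.2 and 13.8 in PT (1.77, SE 0.11). Heyl (1.40), a Notch target, and Bmp2 (1.24) were also higher in NP. On the PT side, Emx1 (-1.97), Emx2 (-1.75), E-cadherin Cdh1 (-1.33), Pax8 (-1.11) and Lhx1 (-1.04) were called. Lhx1, a homeobox gene of the vesicle, had 13.8 and 20.2 in NP and 33.6 and 30.2 in PT, and 17 of 20 peaks of Pax8 counted for another gene as well.

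Proximal tubule transcription factors were open in PT. Of 17 tested, 15 were called higher in PT and 2 in NP, with a median of -1.51. Hnf4a, a nuclear receptor of the mature proximal tubule, had 17.5 and 30.7 open calls per 100 nuclei in NP and 227 and 203 in PT (-3.29, SE 0.07). Tfec (-3.28), the nuclear receptor Nr1i3 (-3.10) and Hnf4g (-2.67) followed. Maf had 23.7 and 32.7 in NP and 79.3 and 68.0 in PT (-1.51, SE 0.09). Cux2 (1.21) and the circadian repressor Bhlhe41 (0.72) were the exceptions, higher in NP.

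Transport and uptake genes followed the same side. In glucose, phosphate, sodium and water transport 18 of 19 genes were called higher in PT and none in NP (median -2.64), in organic ion transport 14 of 15 tested and 1 in NP (-2.74), and in amino acid and peptide transport 13 of 14 and none in NP (-1.82). Slc34a1, the sodium-phosphate cotransporter of the brush border, had 11.7 and 15.9 open calls per 100 nuclei in NP and 146 and 125 in PT (-3.41, SE 0.09). Slc5a12 (-3.86), which takes up lactate, Cldn2 (-3.78), a claudin that lets water and sodium through, and Slc6a18 (-4.13), a transporter of neutral amino acids, were also far higher in PT. Slc5a2, the main glucose carrier of the convoluted segment, had 3.10 and 3.08 in NP and 13.7 and 12.03 in PT (-2.16, SE 0.22), and against PT2 its value was 0.17. Against PT2, Slc5a12 was not called either (-0.31), and Slc34a1 was at -1.44. Slc13a1, a sulfate carrier, was not called over its body (0.13, adjusted p = 0.41, edgeR), while the 2 kb on either side of its start gave -2.90. Slc36a2 (-0.13) was not called, and the efflux pump gene Abcc4 (0.26) was higher in NP. Slc22a19 (-4.48), Slc22a13 (-3.71, all peaks shared), Slc6a20b (-3.46) and Slc3a1 (-3.22) were other leaders of these lists.

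Of 10 endocytosis genes, 7 were called higher in PT and 3 in NP (median -1.85), against 33.7% and 34.5% of all genes. Lrp2, which encodes the protein receptor megalin, had 52.5 and 62.6 open calls per 100 nuclei in NP and 220 and 185 in PT (-1.92, SE 0.06). Folr1 (-2.73), Cltrn (-2.56) and the adaptor Dab2 (-2.29) were also higher in PT. Cubn, the partner receptor cubilin, had 68.0 and 68.9 in NP and 63.1 and 50.1 in PT and was called higher in NP by a small margin (0.18, SE 0.08). The 2 kb on either side of its start gave -2.99, so the direction rests on which peaks are counted. Clcn5 (0.26) was higher in NP as well.

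Brush border genes were higher in PT in 17 of 17 (median -1.81), with Mep1a (-2.86), Pdzk1 (-2.77) and Mep1b (-2.74) in the lead. In fatty acid oxidation, gluconeogenesis and related metabolism 25 of 25 were higher in PT (median -1.61). G6pc, which releases free glucose, had 0.484 and 0.398 open calls per 100 nuclei in NP and 21.02 and 18.1 in PT (-5.53, SE 0.28). Pck1, the entry step of gluconeogenesis, had 3.29 and 5.27 in NP and 62.2 and 47.4 in PT (-3.78, SE 0.13), and Miox gave -4.72. The cytochrome P450 genes had the lowest median of the 12 lists, -4.34 with 11 of 11 higher in PT, among them Cyp4a14 (-5.16) and Cyp4a31 (-4.48) and, with the smallest difference, Cyp51 (-1.13), an enzyme of sterol synthesis. Cyp2e1 had few calls, with 0.0969 and 0 per 100 nuclei in NP and 3.29 and 2.51 in PT.

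Cell cycle genes gave no common direction. Of 16 tested, 12 were not called, 2 were higher in NP and 2 in PT, with a median of 0.06. Ccnd2 stood apart with 34.98 and 45.5 open calls per 100 nuclei in NP and 8.23 and 8.26 in PT (2.16, SE 0.13). Mki67 (0.42) was the other one higher in NP, and Mcm2 (-0.61) and Ccnb2 (-0.42) were higher in PT. Around the start alone Ccnb2 was higher in NP (0.61) and Mcm2 was not called (-0.24), and against PT2 Mki67 was not called (0.42).

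**Figure D2:**
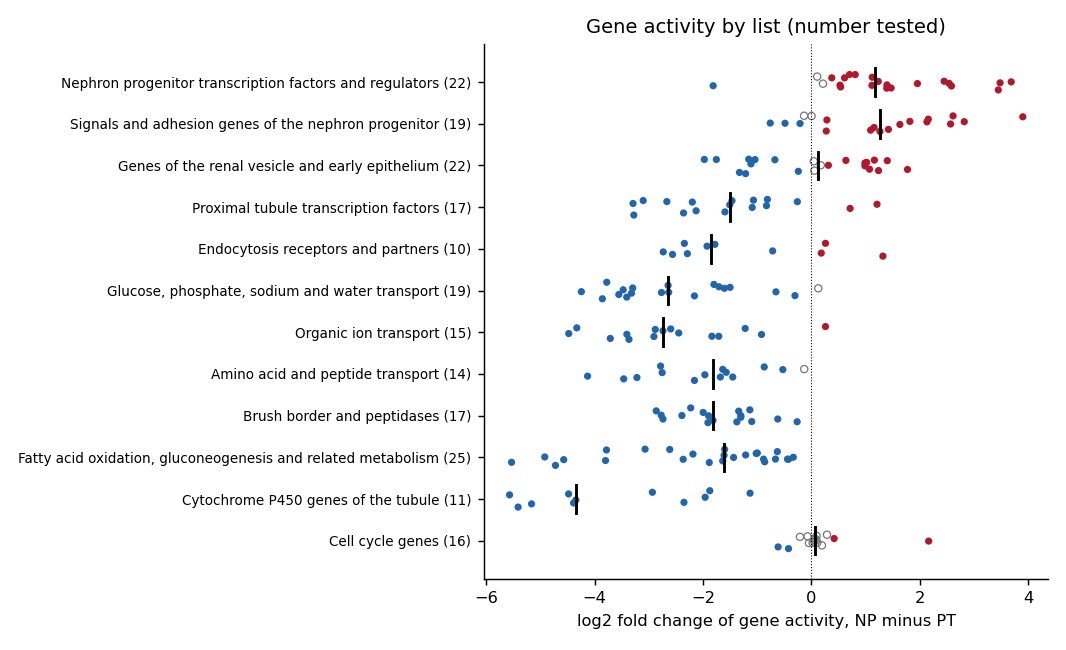
The log2 fold change of gene activity, NP minus PT (x axis), of each gene tested in the 12 lists, with filled points for genes called (red higher in NP, blue higher in PT), open points for genes not called, and a bar at the median. Medians run from 1.27 in the signals and adhesion genes to -4.34 in the cytochrome P450 genes, and the cell cycle genes lie around 0.06.

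Marker genes were then counted. The study named the clusters from open chromatin at markers, some of which are in these lists, so the NP and PT counts are no independent check of the labels. Of 8 NP markers 7 were higher in NP, all but Crym, and of 10 PT markers 9 were higher in PT, all but Cubn. Among markers of other cell types, all 5 collecting duct markers, 4 of 5 endothelial and 5 of 6 stromal ones were called higher in NP, against 34.5% of all genes, with Foxd1, a factor of the stromal progenitors next to the cap, at 24.03 and 31.4 open calls per 100 nuclei in NP and 9.14 and 5.03 in PT (1.86). The summed stromal markers were 102 and 128 per 100 nuclei in NP and 60.1 and 49.4 in PT, the endothelial ones 119 and 148 against 68.4 and 55.1, and the collecting duct ones 118 and 145 against 93.4 and 69.5. Immune markers summed to 15.6 and 20.6 in NP and 51.6 and 39.5 in PT, mostly from Csf1r (44.1 and 33.6 in PT), while C1qb had 0 calls in PT. None of the 3 loop of Henle markers was called, and of 5 podocyte markers 1 was higher in each direction. The part of other cells or of barcodes with 2 nuclei in the values above was not tested.

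Distal peaks, which overlap no exon, UTR or intron and none of the 5 kb upstream of any transcript, were tested in the same fit. The rule sets no distance downstream of a transcript. Of 30219 tested, 13807 (45.7%) were called higher in NP and 9303 (30.8%) in PT, 76.5% in all, and without sample 1 the number called was 14404 (7536 higher in NP and 6868 in PT) and without sample 2 it was 17488 (10661 and 6827). A peak was ranked if it was open in at least 10% of the nuclei of the higher cluster in both samples, which left 1304 peaks higher in NP and 1398 higher in PT. The NP set had a median of 13.9% and 16.4% of NP nuclei and 1.83% and 1.44% of PT nuclei in samples 1 and 2. The PT set had 17.6% and 14.7% of PT nuclei and 2.03% and 2.84% of NP nuclei. The NP set lay farther from gene starts than the PT set. Its median was 59.5 kb to the nearest start with 35.6% beyond 100 kb, against 29.0 kb and 17.0% in the PT set. The distance of all distal peaks is not given here, so neither set can be called unusual.

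Of the 10 leading NP peaks, 8 had no open call in 1104 PT nuclei, which allows a share of up to 0.272%. The fitted changes of these 8 depend on the prior count, so the order of the leading NP peaks is uncertain. The peak at chr11:84660928-84661521, 135.69 kb upstream of Lhx1, was open in 20.8% and 24.6% of NP nuclei and in 0% of PT nuclei in both samples, at least 74.7-fold higher in NP after depth normalization, against a floor of 3 calls over the group. The exact 95% interval of that ratio, which allows more than 3 calls, starts lower, at 60.5. The ratios of calls given for the other peaks are normalized for depth in the same way. It was not confined to NP, since 17.9% of loop of Henle and 17.8% of principal cell nuclei at P0 had it open. A peak at chr19:26865564-26866394, 19.9 kb upstream of Gm815, had 18.2% and 20.5% in NP and 0% in PT (at least 63.7-fold, interval from 51.6) and was open in 23.6% of endothelial nuclei. The peak 7.23 kb upstream of Meox1, a homeobox gene of the progenitor list, had 14.1% and 15.3% in NP and 0% in PT (at least 48.3-fold, interval from 39.1), with 10.9% in a stromal cluster. The peak 18.3 kb upstream of Zfp703 had 13.6% and 17.3% in NP (at least 50.8-fold, interval from 41.05) and at most 1.86% in any other cluster named as a cell type. The most open of the 10 lay 474 kb upstream of Cdh4, with 27.1% and 32.7% of NP nuclei and 0.183% and 0% of PT nuclei. Its 609 calls in NP and 1 in PT gave a depth-normalized ratio of 295, with a 95% exact interval of 52.8 to 11687 that covers counting error only. A peak 446 kb downstream of the start of Fgf9, whose ligand keeps progenitors alive, had 21.1% and 24.9% in NP and 0.183% and 0% in PT. In both samples the 10 shares in NP were 11.6% or more and those in PT 0.183% or less. This gap follows from the ranking by fold among peaks open in at least 10% of NP nuclei.

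The 10 leading PT peaks each had from 2 to 7 open calls in NP. The first, at chr9:57669516-57670197 and 13.8 kb downstream of the start of Cyp1a2, was open in 17.9% and 14.9% of PT nuclei and in 0.0969% and 0.199% of NP nuclei. Its 181 calls in PT and 3 in NP gave a depth-normalized ratio of 124, with an interval of 41.9 to 609. The peak at chr11:101378216-101379656, 11.4 kb downstream of the start of G6pc, was the most open of them, with 29.8% and 21.5% in PT and 0.194% and 0.498% in NP. The peak 66.6 kb upstream of Acsl1, an acyl-CoA synthetase, had 15.7% and 15.6% in PT, and that 13.1 kb downstream of the start of Sucnr1, the succinate receptor, had 12.1% and 12.03%. Nearest starts were taken by distance alone. All 10 had PT2, the straight segment, as the other cluster with the highest share, from 3.30% near G6pc to 24.4% for the peak 75.8 kb upstream of Ntf3.

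**Figure D3:**
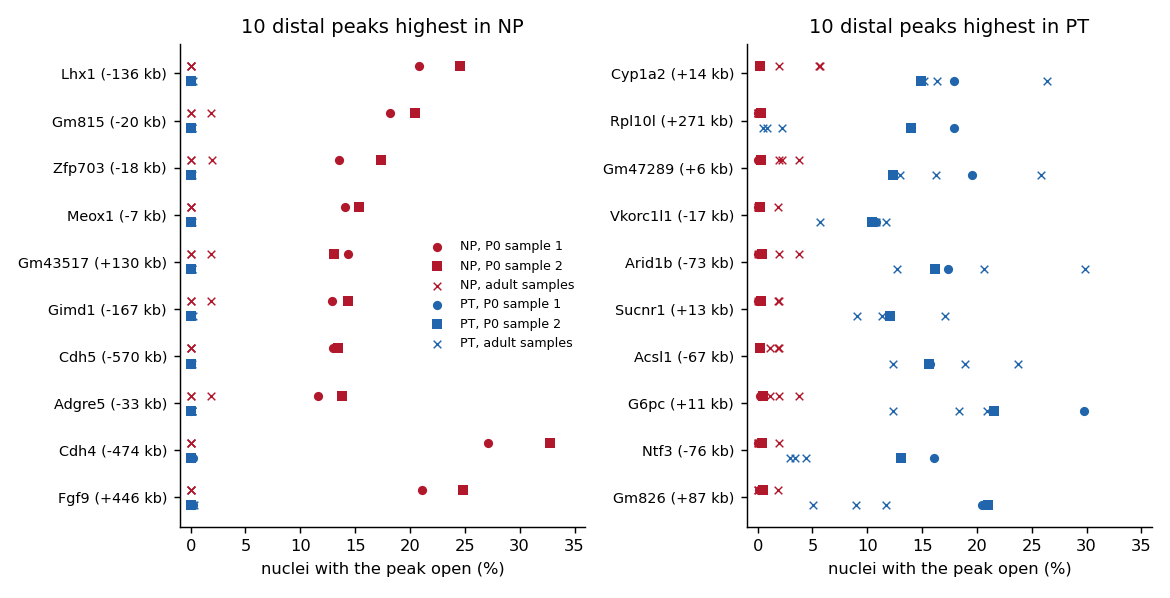
Share of nuclei with the peak open (x axis, percent) for the 10 leading distal peaks of each direction, named by the nearest gene start and the distance of the peak's centre from it. Circles and squares are P0 samples 1 and 2 and crosses the 3 adult samples, with NP red and PT blue, and the NP peaks were at 0% to 1.92% in adult NP, above PT for 1, 0 and 4 of 10, while 10 of 10 PT peaks were higher in PT than in NP in each adult sample.

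Both sets were shared in part with other cell types. In the PT set, 96.1% of the peaks were open in PT2 at 50% or more of the share in PT, and with PT2 left out 47.0% reached that level in no other cell type and 35.98% did in loop of Henle. In the NP set 35.5% reached it in no other cell type, while 37.4% did so in loop of Henle, 32.2% in the connecting tubule and 31.1% in a stromal cluster. These shares are descriptions, since the sets were chosen on NP and PT. They are also not corrected for depth. In P0 samples 1 and 2 the median open peaks were 10199 and 8547.5 in PT2 nuclei, against 7128 and 5420 in PT. In podocytes they were 3387 and 4506.5, so the 50% level is easier to reach in PT2 than in shallow clusters. The part of depth in these shares was not tested.

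In the adult samples the NP to PT contrast was measured in other nuclei of the same clusters, with 52 to 90 NP nuclei a sample. None of the 10 leading NP peaks had enough adult calls to be tested there, and their adult NP shares were 0% to 1.92%, larger than in PT for 1, 0 and 4 of the 10 in the P21 sample and the 2 P56 samples. Of the 1304 peaks of the NP set 612 were tested in the adult samples, 386 had the same direction, 195 were called in it and 45 in the opposite one. Over all 1304, the share was larger in NP for 491, 612 and 664 in the P21 sample and the 2 P56 samples. The median shares of the NP set were 0.962%, 1.11% and 1.89% in adult NP and 0.451%, 0.366% and 0.392% in adult PT. With 52 to 90 NP nuclei a sample, these NP values are at the level of single calls. The counts of peaks with a larger share in NP thus rest on few calls. Of the PT set 1384 were tested, 1264 had the same direction, 1000 were called in it and 35 in the opposite one, and the median shares in adult PT were 15.4%, 11.4% and 20.4%. Over all distal peaks tested in the adult samples 14.4% were called higher in NP and 26.5% in PT. The median log2 fold change of all peaks in the adult fit was -0.53, so directions there lean towards PT. Among the 10 leading PT peaks, 9 were tested, all 9 had the same direction and 8 were called. In the gene activity of the adult samples, 7 of the 22 progenitor regulators were called higher in NP and 3 in PT (median 0.18), and of the 19 signalling and adhesion genes 3 and 4 (-0.26), against 15.1% and 19.4% of all genes tested there. Of the 8 NP markers 2 were called higher in NP and 2 in PT there (median -0.11), and 9 of the 10 PT markers were called higher in PT (-2.37). The NP markers as a set thus did not bear out the name NP in the adult samples, where it is used as the cluster's label only. All 3 loop of Henle markers, none of them called at P0, were higher in NP in the adult samples (median 2.17), and the part of other cells in the adult values was not tested. The contrast itself differed between P0 and adult, in a joint fit, for 12.9% of distal peaks and 22.4% of genes tested. Six2 was open in adult NP with 0, 0 and 1.89 calls per 100 nuclei, which is 1 call in 195 nuclei, whereas Uncx had 3.85, 11.1 and 17.0 there and 1.23, 0.488 and 0.827 in adult PT (log2 fold change 3.86).

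Distal peaks around genes were then set beside the genes' own activity, which is summed over other peaks. The lists were counted gene by gene, so a peak near several listed genes counts for each of them. Within 100 kb of the starts of the 22 progenitor regulators, 121 of 174 counts of distal peaks tested (69.5%) were higher in NP and 33 (18.97%) in PT. Of all distal peaks tested, each counted a single time, 45.7% and 30.8% were, so the shares are not strictly comparable. Around markers of other cell types the NP and PT shares were 66.7% and 11.1% (endothelial), 63.6% and 18.2% (stroma) and 57.1% and 20% (collecting duct). They were 50% and 38.5% for podocyte, 44.4% and 22.2% for loop of Henle and 9.09% and 36.4% for immune markers. The lean towards NP was thus not particular to progenitor regulators. Around the 19 glucose, phosphate, sodium and water transport genes it was 15 against 52 of 89 such counts, and around the 11 cytochrome P450 genes 4 against 43 of 55. Over all 17166 protein-coding genes tested, the median log2 fold change of activity was 0.16 for 1359 genes with at least 3 more distal peaks higher in NP than in PT, and -0.33 for 1429 genes with at least 3 more higher in PT. It was -0.01 for 5346 genes with no distal peak called and -0.05 for all of them. The quartiles of the first set, -0.26 and 0.95, and of the second, -0.91 and 0.06, overlap.

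Single loci showed both patterns, and those given here were chosen after their values were seen. Around Six2, 8 of 9 distal peaks were higher in NP and none in PT. The peak at chr17:85747869-85749434, 60.4 kb upstream of Six2, was open in 37.7% and 45.1% of NP nuclei and in 2.74% and 1.80% of PT nuclei (log2 fold change 4.03, SE 0.18), and in 0% of adult NP nuclei in all 3 samples. Around Wt1 10 of 13 were higher in NP and none in PT, and around Uncx 24 of 28 and 2. On the PT side, 4 of 4 around Slc34a1, 7 of 8 around Maf, 5 of 6 around Hnf4a and 4 of 4 around G6pc were higher in PT and none in NP. The peak at chr13:55391562-55392335, 6.24 kb upstream of Slc34a1, was open in 38.4% and 34.1% of PT nuclei and in 0.678% and 1.49% of NP nuclei (-5.22, SE 0.19). In adult PT its share was 47.1%, 27.3% and 58.4%.

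At other genes the surroundings and the gene body differed. Lhx1 had lower activity in NP, yet 10 of 11 distal peaks within 100 kb of it were higher in NP. For Pax8 it was 7 against 1 of 10, and for Pax2, which was not called itself, 12 of 12 in NP. Sall1 was the reverse, with activity higher in NP by 0.53 and 7 of 21 distal peaks higher in NP against 14 in PT.

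**Figure D4:**
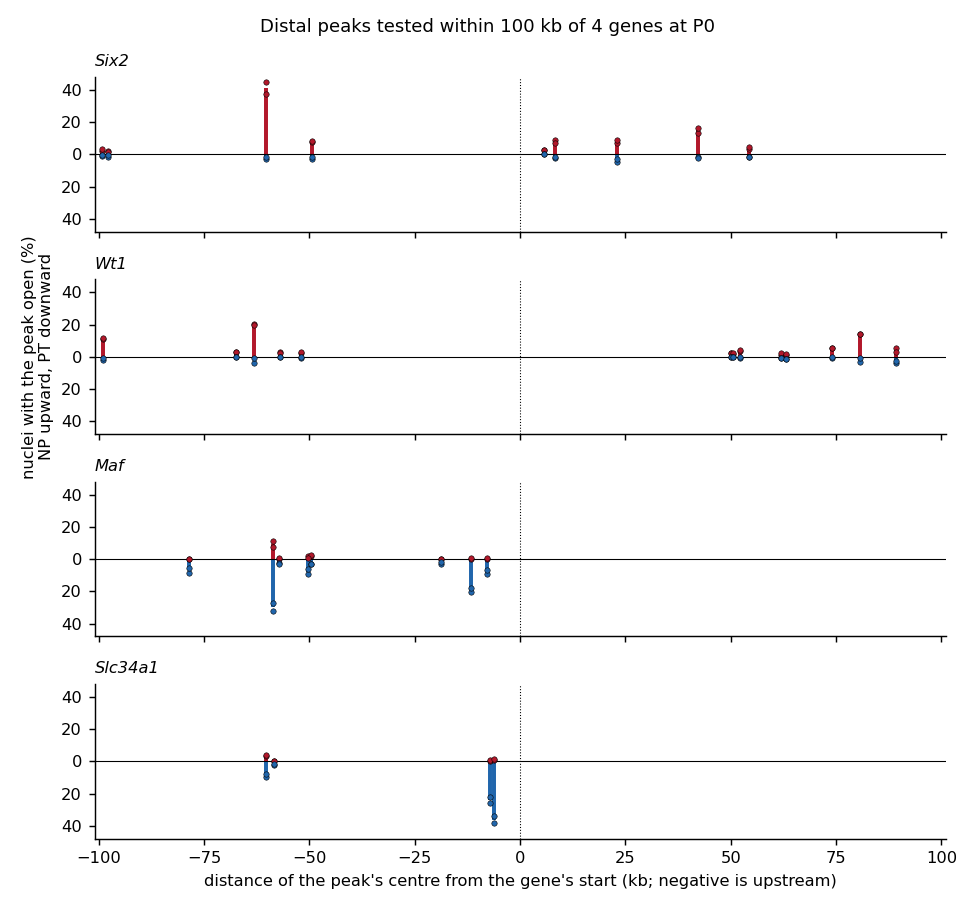
Distal peaks tested within 100 kb of the starts of Six2, Wt1, Maf and Slc34a1, by distance from the start in kb (x axis) and share of nuclei with the peak open (y axis, percent; NP upward in red, PT downward in blue). Bars are means of the 2 P0 samples and points the samples, and the peak 60.4 kb upstream of Six2 reaches 45.1% of NP nuclei and that 6.24 kb upstream of Slc34a1 38.4% of PT nuclei.

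Motif letters were counted in the central 300 bases of distal peaks, on both strands, as a description. The HNF4 letters CAAAGTCCA were in 2.74% of the 9303 peaks called higher in PT, 0.326% of the 13807 called higher in NP, 0.520% of the 7109 tested without a call and 0.823% of all 94943 distal peaks. The HNF1 letters GTTAATNAT were in 5.30%, 0.905%, 1.03% and 1.71% of the same sets. In the 1398 leading peaks of PT these shares were 2.93% and 5.36%, and in the 1304 of NP 0.0767%, a single peak, and 1.07%. Both motifs were thus several times as frequent on the PT side as on the NP side.

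On the NP side the letters CTCCCNCAC, known for WT1, were in 5.20% of peaks higher in NP and 2.39% of those higher in PT, with 2.98% in peaks without a call and 2.72% in all. The letters GCCATAAA of HOX9 to HOX13 were in 1.79% against 0.903%, with 0.774% and 1.36%. TCF/LEF letters (ATCAAAGG) differed less, at 2.11% against 1.52% with 1.36% and 1.62%, and in the leading peaks at 3.07% against 1.502%. The median GC content was 48.7% in peaks higher in NP and 46.7% in those higher in PT, and its part in these shares was not tested.

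For the other motifs searched, the shares are given for the NP side and then the PT side. Of these, SOX letters (AACAAAG) were in 8.64% and 8.44%, with 9.09% in all distal peaks. TEAD letters (ACATTCCA) were in 2.46% and 2.58% with 2.46% in all, PAX2/PAX8 letters (GTCATGC) in 3.09% and 3.13% with 2.78%, and GATA letters (AGATAAG) in 3.59% and 3.47% with 4.44%. FOX letters (TGTTTAC) were in 5.40% and 4.88% with 5.47%, POU octamers (ATGCAAAT) in 1.67% and 2.02% with 2.08%, and ESRR letters (TCAAGGTCA) in 0.732% and 0.881% with 0.861%. TFAP2 letters (GCCNNNGGC) were in 9.41% and 8.51% with 7.002%, ETS letters (CCGGAAG) in 2.06% and 1.68% with 1.54%, AP-1 letters (TGANTCA) in 10.1% and 12.2% with 11.4%, and MAF letters (TGCTGAC) in 5.95% and 7.60% with 5.97%. The nuclear receptor repeat GGTCAAAGG was in 0.319% and 0.935% with 0.470%. CTCF letters (AGGGGGCGC) were most frequent in peaks without a call, at 1.79%, with 0.406% and 0.226% in those called and 0.255% in all. Some motifs can overlap, and of 255 PT peaks with HNF4 letters 34 also held SOX letters and 3 the nuclear receptor repeat.

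**Figure D5:**
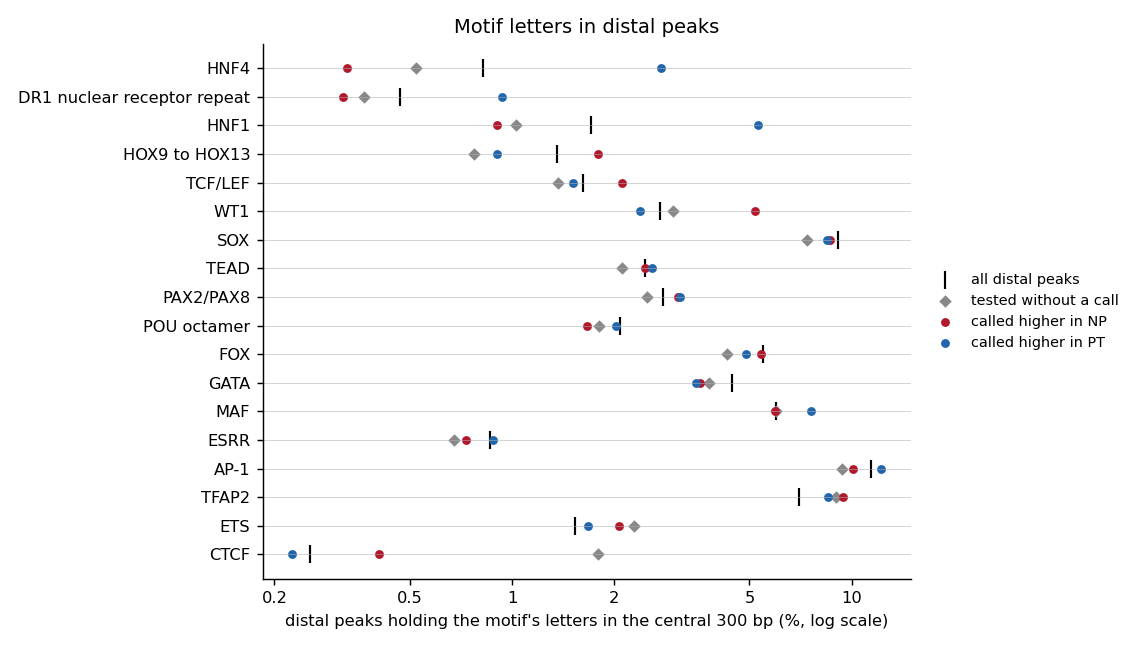
Share of distal peaks whose central 300 bases hold each motif's letters on either strand (x axis, percent, log scale), for all 94943 distal peaks (ticks), peaks tested without a call (grey diamonds), called higher in NP (red) and called higher in PT (blue). HNF4 and HNF1 letters reach 2.74% and 5.30% on the PT side, and WT1 letters 5.20% on the NP side.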

How the data were processed

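Nuclei of mouse kidney were profiled by 10x Chromium single-nucleus ATAC-seq. According to the study's methods and the submitters' processing notes, the authors used Cell Ranger ATAC 1.1.0 and mm10 (GRCm38), binarized the peak matrix, clustered nuclei with SnapATAC and Harmony, called peaks with MACS2 per cell type, merged them and named clusters from markers. The deposited values are counts of 0 or 1 per peak and nucleus, over 300755 peaks, and 89197 stored zeros were read as closed. Here open calls were summed per sample and cluster. Gene activity was the sum over peaks that overlap a gene or its 2 kb upstream (GENCODE M21). Doublets were not searched for.

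Sums were filtered (filterByExpr, minimum count 10 and total 15), scaled by TMM and tested with edgeR 4.0.16 in R 4.3.3 (glmQLFit, sample as a block, Benjamini-Hochberg adjustment at 0.05). NP and PT of a sample come from the same kidney sample, which is what pairs them. The study tested nuclei with Fisher's exact test, which was an alternative here. SE is the absolute log2 fold change over the square root of F. With 1 residual degree of freedom, p-values mostly reflect counting error, and nothing says that the samples were separate animals. Genes were named as the protein-coding genes with the largest change, 12 in each direction, among those called with the same direction in both samples and at least 0.25 open calls per nucleus in the higher cluster, beside members of the lists (up to 3 leaders in each direction and those needed to describe the list). Distal peaks were named as the 10 with the largest change in each direction among those called and open in at least 10% of nuclei of the higher cluster in both samples. The members and lists were chosen with earlier results of these data known. Intervals and floors cover counting error only. Some genes and a motif are not reported here, though list counts include every member. The fits were run on counts simulated with the spread estimated from these same sums, so the simulation cannot tell whether that spread is too small.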

Additional observations from a re-analysis of the deposited data

Results flagged for a closer look

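The log2 fold change of NP over PT at P0 (2 samples) was set against that in the adult kidneys (3 samples) in 1 fit of stage and cluster, with edgeR's quasi-likelihood test of the difference. Values printed below for P0 and for the adult samples come from separate fits of each stage. Only the differences come from the joint fit, so the printed values do not subtract exactly. The difference passed an adjusted p of 0.05 for 44 of the 89 genes named, of which 42 also had enough calls for a fit of the adult samples alone, and for 10 of the 20 distal peaks, of which 1 did. Over all features the share was 22.4% of genes and 12.9% of distal peaks, and the named ones were chosen in part for a large contrast at P0. Adult NP held 195 nuclei against 2037 at P0, so a value there can rest on few calls. The clusters were made from nuclei of both stages, and the NP markers as a set did not bear out the label NP in the adult samples.

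Among progenitor genes, the contrast of Six2 was 3.69 at P0 and -1.31 in the adult samples, a difference of 5.08 that rests on 1 adult NP call. Wt1 was 1.96 at P0 and -0.40 in the adult samples (difference 2.45), Osr1 0.81 at P0 and -1.21 in the adult samples (2.09) and Rit2 3.21 at P0 and -0.53 in the adult samples (3.80). Wnt4 went the other way, at 1.77 at P0 and 3.10 in the adult samples (-1.26). Cdh1 was -1.33 at P0 and 0.57 in the adult samples (-1.81), and Wnt5a was -0.49 at P0 and 1.11 in the adult samples (-1.53). Among tubule genes, Slc13a1 was 0.13 at P0 and -1.97 in the adult samples (2.18) and Sult1d1 -4.57 at P0 and -1.12 in the adult samples (-3.37). The distal peak downstream of the start of Cyp1a2 was -6.81 at P0 and -2.09 in the adult samples (-3.69).

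For 9 of the 10 leading NP peaks the difference passed as well, on at most 1 open call in adult NP nuclei of any sample, so these fitted differences depend on the prior count and give no size. They were 13.46 upstream of Lhx1, 12.66 upstream of Meox1, 12.12 for the peak nearest to Cdh5, 11.72 for that downstream of the start of Fgf9, 8.55 upstream of Gm815, 8.02 upstream of Zfp703, and 8.08, 8.40 and 8.19 for the peaks nearest to Gm43517, Gimd1 and Adgre5. The genes Adam23 (3.53) and Lamp5 (3.68) passed too, with too few adult calls for a value there.

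Other genes that were higher in NP at P0 had a larger log2 fold change there than in the adult samples, with differences of Rspo1 (1.83), Hoxc4 (2.55), Tnc (1.501), Eya1 (0.93), Sall1 (0.94), Cited1 (1.44), Gdnf (1.67), Cdh11 (2.49), Bhlhe41 (0.65), Cubn (1.00), Clcn5 (0.58), Abcc4 (0.64) and Ccnd2 (1.13). Others that were lower in NP at P0 had a more negative one there, with differences of Cyp2j5 (-2.53), Acsm1 (-1.23), Rnf224 (-2.20), Entpd8 (-2.35), Olfr287 (-2.39), Slc17a3 (-1.75), Emx2 (-1.14), Pax8 (-0.81), Folr1 (-1.76), Cltrn (-1.33), Cldn2 (-2.41), Slc22a13 (-1.71), Slc6a18 (-2.99), Slc3a1 (-1.41), G6pc (-3.04), Miox (-1.85) and Csf1r (-1.11). The remaining differences, P0 minus adult, were those of Pax2 (-0.42), Fgf9 (0.59) and Maf (0.93). What these differences come from was not tested.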

How the results depend on the processing

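With sample and cluster in the model, NP and PT of the same kidney sample were paired by a replicate block, and without the block 87002 peaks, 23324 distal peaks and 17761 genes were called, against 86725, 23110 and 18555 with it. PT as used is the convoluted cluster alone, so using it alone gave the reported values. With PT2 in its place 53003 peaks, 14384 distal peaks and 11749 genes were called. With each nucleus thinned to 2000 open peaks the counts were 28532, 6676 and 10982, and 19054, 5127 and 2217 at 4-fold or more. Without 1 or the other P0 sample they ran from 54312 to 64043 peaks, 14404 to 17488 distal peaks and 11231 to 11304 genes, and at 4-fold or more from 44660 to 52145, 12775 to 15466 and 3266 to 3420. The shift of the log2 fold change was taken peak by peak, over the peaks called in the reported fit and also tested under the alternative. Its median was 0.21 with thinning, 0.30 without P0 sample 2 and 0.32 with the spread shared with the adult samples. In the adult samples 29613 peaks were called, and 15483 to 22375 without each of them. DESeq2 called 63304 peaks, 17127 distal peaks and 12478 genes, and these totals were within 1.5 times of those reported, as were those with RLE scaling, no filter, PT2 or PT_out added, equal nuclei, the adult spread and, for peaks, Fisher's test over nuclei, which was not run on gene activity. By direction, Fisher's test called 21274 distal peaks higher in NP, against 13807, and DESeq2 6229 genes, against 9386, and with PT2 in place of PT 16839 peaks and 4149 distal peaks were at least 4-fold higher in it, against 26425 and 6460. Over whole peaks the motif shares differed, NP minus PT, by -3.86 percentage points for HNF4, -6.60 for HNF1, 1.25 for HOX9 to HOX13 and 4.59 for WT1, against -2.42, -4.39, 0.89 and 2.81 in the central window. Within 50 kb in place of 100 kb, the medians of genes near peaks of either direction were 0.25 and -0.41.

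A change of sign was counted only for values called in the reported fit or under the alternative. Of 1478 values of 109 named genes and peaks under the alternatives, 1422 kept the side of the threshold without such a change. A further 44 were no longer called, 5 became called and 7 turned sign. The last were Ncam1 (0.16 against PT2 and 0.71 around its start), Fgf20 (-0.37), Cubn (-2.99), Slc13a1 (-2.90) and Ccnb2 (0.61) around the start, and Slc5a2 against PT2 (0.17). Around the start alone, of 85 values 5 turned sign, 2 became called and 5 were no longer called. The cause of these changes was not tested. Of the 28532 peaks called after thinning, 27701 were among those reported, 1 of them in the opposite direction, while fewer peaks passed the filter at that depth.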
